A study of Homo sapiens with 6 samples.

Results

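The interleukin-1 family and inflammatory genes comprised 10 genes chosen by name from the 60831 genes of a deposited expression table: the receptor genes IL1R2, IL1R1 and IL1RAP, the ligand genes IL1A, IL1B and IL18, the receptor antagonist gene IL1RN, the chemokine genes CXCL1 and CXCL8, and LCN2. All 10 names matched a single gene of the table. RNA had been sequenced in bulk from PATU8988, a human pancreatic cancer cell line, in 3 CLIC1-knockdown libraries (shCLIC1) and 3 control libraries (shNC). CLIC1 encodes a chloride intracellular channel protein. Both groups carried a lentiviral vector with a hairpin, EGFP and puromycin resistance, and both had been kept in 5 μg/mL puromycin for 2 weeks, so these were selected stable lines. No label says that the 3 libraries of a group came from separate infections or cultures, and p-values then reflect only the spread of these samples, part or all of which may be technical.

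Interleukin-1 alpha and beta signal through a complex of IL1R1 and the shared subunit IL1RAP, which recruits MYD88 and IRAK kinases and activates NF-kB. IL1R2 binds interleukin-1 but lacks the intracellular signalling domain and acts as a decoy, and the antagonist encoded by IL1RN occupies IL1R1 without activating it. In epithelial and tumour cells this pathway induces neutrophil-attracting chemokines such as CXCL1 and CXCL8 and the iron-siderophore binding protein lipocalin 2, the product of LCN2.

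The letters that NF-kB is known to bind are shown first, because the chemokine genes and LCN2 are textbook targets of that factor. Their mean levels lay on different sides of control here. LCN2 did not pass the threshold used below, and CXCL8 and CXCL1 were too low for the main test. Windows from 250 bases before to 50 bases after the RefSeq start (GRCh38.p14) were found for 9 of the 10 genes, 16 windows in all. The motif GGAANNTCC, searched on both strands, was in 3 of the 16 windows, 1 each of CXCL8, CXCL1 and LCN2, and in 4.56% of the 35116 windows of all genes. The sequences below are 30 bases long with the motif in capitals, on the plus strand, at chr4:73740468-73740497, chr4:73869305-73869334 and chr9:128149268-128149297.
CXCL8: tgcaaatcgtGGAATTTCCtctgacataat
CXCL1: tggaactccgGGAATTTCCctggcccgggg
LCN2: cagcactccgGGAATGTCCctcactctccc
The motif began 91, 78 and 175 bases before the start in CXCL8, CXCL1 and LCN2. The 9 letters were the same in CXCL8 and CXCL1. A second motif, TGANTCA, was searched in the same way. It holds the AP-1 letters TGACTCA and TGAGTCA and also allows A or T in the middle. It was in 5 of the 16 windows, belonging to IL1A, IL1RN, CXCL8 and LCN2, and in 7.71% of all windows. The IL1A windows overlap and share their matches, so the same sites count again. In LCN2 the match was TGAATCA, which has A in the middle. The second motif does not overlap the NF-kB match in CXCL8 or LCN2. In CXCL8 it lay upstream of the NF-kB match, at chr4:73740421-73740450.
CXCL8, AP-1 letters in capitals: aggaagtgtgaTGACTCAggtttgccctga
Neither motif was found in the 2 windows of IL1R2. A match is a description of the letters and not evidence of binding, and its absence concerns only these windows.

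The targeted gene was lower in the knockdown libraries. CLIC1 was at 219, 210 and 204 TPM in knockdown, against 313, 311 and 297 TPM in control, a log2 fold change of −0.54 (SE 0.0407, limma adjusted p = 0.00345). TPM is a level scaled per gene length and per library, and sequencing depth is unknown because TPM does not keep it. Each library summed to between 999988 and 999992 TPM. Epithelial markers were abundant: EPCAM, KRT8, KRT18 and KRT19 rose in knockdown, 4 of 6 markers, where 0.962% of all tested genes were called higher. KRT7 was at 2.92, 3.13 and 2.42 TPM in knockdown, against 1.31, 1.52 and 1.39 TPM in control, and did not pass (limma adjusted p = 0.0767). CDH1, the gene of E-cadherin, was at 132, 125 and 111 TPM in knockdown, against 144, 131 and 134 TPM in control, and did not pass either (log2 fold change −0.16, adjusted p = 0.354). The summed level of the 6 was 11684, 11225 and 11207 TPM in knockdown, against 9676, 9435 and 9701 TPM in control. The pan-leukocyte gene PTPRC was listed at 0 in every library, as were 4 of 9 immune markers. The 9 immune markers summed to between 6.94 and 7.30 TPM in knockdown, against 4.03 to 6.08 TPM in control, most of it CD14. The 7 fibroblast markers summed to between 23.8 and 32.4 TPM in knockdown, against 28.4 to 30.5 TPM in control, with DCN, LUM and COL1A2 listed at 0. The part of these shifts in the results below was not tested.

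Changes between the groups were computed on log2(TPM + 1) for genes with a mean of at least 1 TPM over the 6 libraries, 14135 in all, and a call was a Benjamini-Hochberg adjusted p below 0.05 in limma. This scale understates the change of low genes. Of the 10 genes, 7 passed the level filter and IL1A, CXCL1 and CXCL8 did not. IL1R2 alone among the 7 lay past the threshold, as higher, where 0.962% of all tested genes were called higher and 1.74% in either direction, and 0 of the 7 were called lower, where 0.778% of all tested genes were. The groups did not overlap for 2 of the 7 tested genes, IL1R2 and LCN2, where 22.3% of all tested genes did not overlap in either direction. The genes were proposed with this contrast known, so their calls and fold changes are given as a description and nothing is read from that count. The median log2 fold change was 0.15 over the 7 genes, and −0.0047 over all tested genes.

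**Figure D1:**
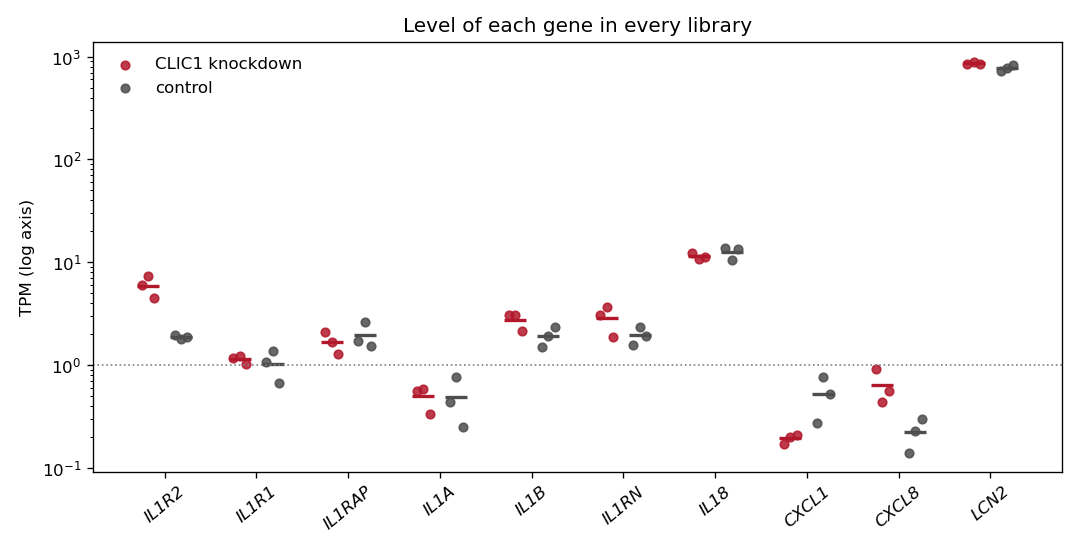
TPM of each gene in every library on a log axis, CLIC1 knockdown in red to the left of control in grey, with horizontal bars at the group means and a dotted line at 1 TPM. IL1R2 and CXCL8 sit higher in knockdown without overlap, CXCL1 lower without overlap, and LCN2 is far above the other genes.

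The decoy receptor gene IL1R2 showed the largest change of the 10 genes. IL1R2 (ENSG00000115590, plus strand of chromosome 2, 101991844 to 102028544, GENCODE 29 on GRCh38) was at 5.99, 7.30 and 4.44 TPM in knockdown, against 1.96, 1.79 and 1.86 TPM in control. The lowest knockdown library was above the highest control library. Its mean was 5.91 ± 1.43 TPM in knockdown and 1.87 ± 0.0854 TPM in control (SD, n = 3 each), 3.16-fold on the TPM scale and 1.25 on the log2(TPM + 1) scale (SE 0.168). The spread was wider among knockdown than among control libraries, and replicate 3 was the lowest of the knockdown group.

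The position of IL1R2 past the threshold depended on single libraries. Its adjusted p was 0.0199 with all libraries. It was 0.0750 without knockdown replicate 1, 0.0756 without knockdown replicate 2, and 0.109, 0.116 and 0.0964 without control replicate 1, 2 or 3, while the log2 fold change stayed between 1.10 and 1.41. Calls over all genes fell too, from 246 to between 20 and 236, when a library was left out. In limma without the mean-variance trend the adjusted p of IL1R2 was 0.0730, and 0 of all genes were called. In bulk RNA a rise in every cell and a rise in a fraction of cells cannot be told apart.

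The genes of the signalling receptor subunits showed no such separation. IL1R1 (chromosome 2, 102064544 to 102179874), which carries the signalling domain, was at 1.16, 1.22 and 1.03 TPM in knockdown, against 1.07, 1.36 and 0.66 TPM in control. The knockdown values lay within the control range. The log2 fold change of IL1R1 was 0.09 (SE 0.193), and it was −0.05 without control replicate 3 and 0.20 without control replicate 2. IL1RAP, the subunit shared by the receptors of several family members, was at 2.11, 1.66 and 1.28 TPM in knockdown, against 1.71, 2.59 and 1.54 TPM in control. The IL1RAP groups overlapped, with a log2 fold change of −0.13 (SE 0.199), which was 0.02 without control replicate 2 and from −0.24 to −0.02 without any other single library.

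**Figure D2:**
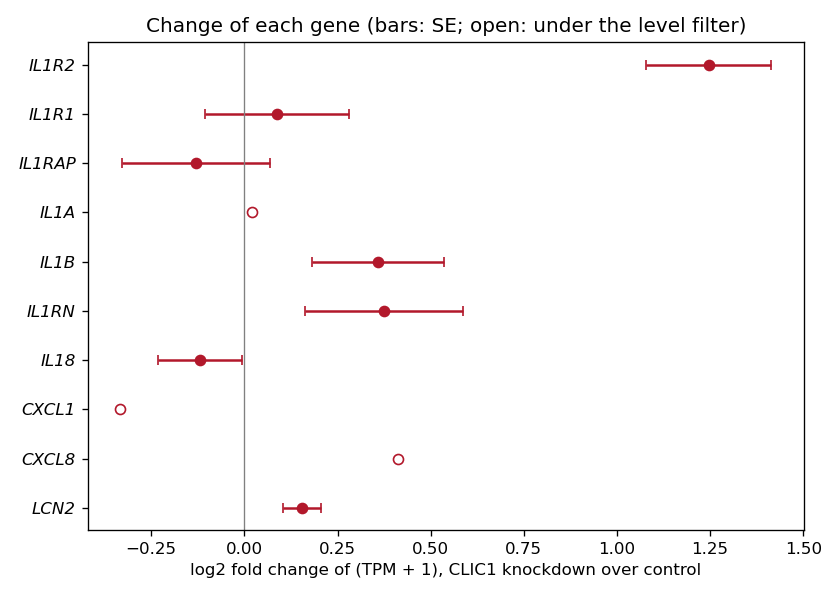
Log2 fold change of (TPM + 1), CLIC1 knockdown over control, for each gene, with SE bars for the 7 tested genes and open points for the 3 genes under the level filter. IL1R2 stands at 1.25 and every other gene lies between −0.33 and 0.41.

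The balance of decoy to signalling receptor transcripts differed between the groups. The ratio of IL1R2 to IL1R1 TPM, a comparison of levels per length, was 5.16, 5.98 and 4.31 in knockdown, against 1.83, 1.32 and 2.82 in control. All knockdown ratios were above all control ratios. The means were 5.15 ± 0.837 in knockdown and 1.99 ± 0.763 in control (SD, n = 3 each). IL1R2 thus made up 83.8%, 85.7% and 81.2% of the summed TPM of both receptor genes in knockdown, against 64.7%, 56.8% and 73.8% in control. IL1R2 transcripts exceeded those of IL1R1 in every library of both groups. Against the shared subunit, the ratio of IL1R2 to IL1RAP TPM was 2.84, 4.40 and 3.47 in knockdown, and 1.15, 0.691 and 1.21 in control. These ratios contain the gene that was chosen for its rise and carry no test.

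**Figure D3:**
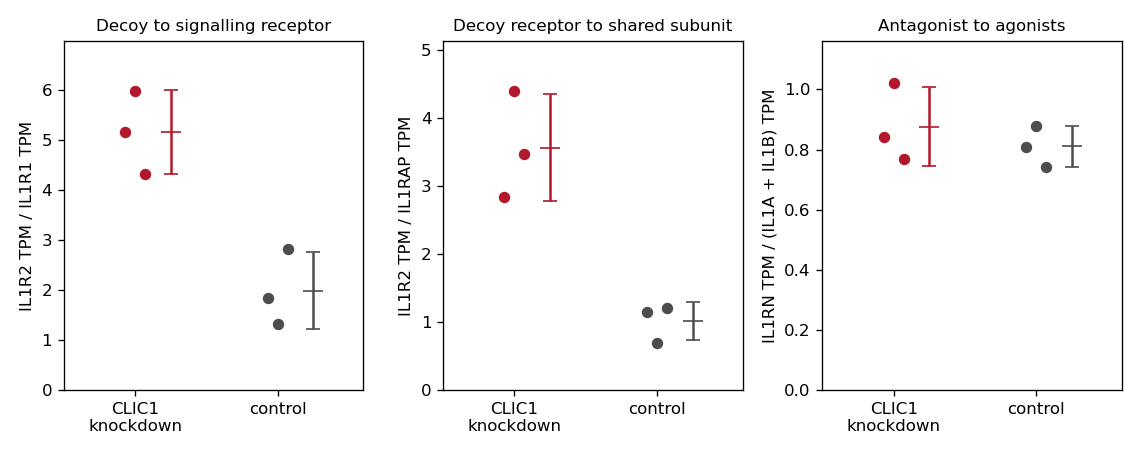
Ratios of TPM within each library for CLIC1 knockdown (red, left) and control (grey, right), with the mean and SD beside the points. The knockdown ratios of IL1R2 to IL1R1 lie between 4.31 and 5.98, above the highest control ratio of 2.82, and the antagonist to agonist ratios overlap.

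Beyond IL1R1, the neighbours of IL1R2 on chromosome 2 were listed at or near 0. IL1R1 starts 36.0 kb beyond the end of IL1R2, and IL1RL2, IL1RL1, IL18R1 and IL18RAP, receptor genes for interleukins 36, 33 and 18, follow on the same strand up to position 102452565. IL1RL2, IL1RL1 and IL18RAP were listed at 0 in every library. IL18R1 was at 0.02, 0 and 0.06 TPM in knockdown, against 0, 0.03 and 0 TPM in control. IL1R2 therefore had the highest level in the receptor cluster in both groups.

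The agonist genes IL1A and IL1B were low. IL1B was at 3.08, 3.03 and 2.12 TPM in knockdown, against 1.50, 1.90 and 2.35 TPM in control. A single knockdown library, replicate 3, lay below the highest control library. The log2 fold change of IL1B was 0.36 (SE 0.177), with means of 2.74 ± 0.540 TPM in knockdown and 1.92 ± 0.425 TPM in control (SD, n = 3 each). IL1A, on the same strand 45.2 kb away, was at 0.56, 0.59 and 0.33 TPM in knockdown, against 0.44, 0.76 and 0.25 TPM in control. The IL1A groups overlapped almost completely, with a log2 fold change of 0.02 that was negative without knockdown replicate 1 (−0.01), knockdown replicate 2 (−0.03) or control replicate 3 (−0.10).

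IL1RN, the receptor antagonist gene, had values close to those of IL1B. It was at 3.06, 3.70 and 1.88 TPM in knockdown, against 1.57, 2.34 and 1.93 TPM in control. Knockdown replicates 1 and 2 were above all control libraries and knockdown replicate 3 was within the control range. The log2 fold change of IL1RN was 0.38 (SE 0.212), and it was 0.22 without knockdown replicate 2 and 0.58 without knockdown replicate 3. The ratio of IL1RN to the sum of IL1A and IL1B was 0.841, 1.02 and 0.767 in knockdown, against 0.809, 0.880 and 0.742 in control, so the groups overlapped. The antagonist to agonist balance thus differed by less than its spread, with means of 0.877 ± 0.131 in knockdown and 0.810 ± 0.0687 in control (SD, n = 3 each).

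IL18, which encodes a cytokine made as an inactive precursor and cut by caspase-1, was the second most abundant of the 10 genes. It was at 12.4, 10.8 and 11.2 TPM in knockdown, against 13.8, 10.6 and 13.4 TPM in control. The groups overlapped and the log2 fold change was −0.12 (SE 0.113). It was −0.05 without control replicate 1, −0.23 without control replicate 2 and −0.07 without control replicate 3. IL18 was above IL1A and IL1B in every library.

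The chemokine genes CXCL8 and CXCL1 were both below 1 TPM in all libraries and lay on opposite sides. CXCL8, which encodes interleukin-8, was at 0.91, 0.44 and 0.56 TPM in knockdown, against 0.14, 0.23 and 0.30 TPM in control. CXCL1 was at 0.17, 0.20 and 0.21 TPM in knockdown, against 0.27, 0.76 and 0.52 TPM in control. Neither gene's groups overlapped. Among the 6999 genes with a mean from 0.1 to under 1 TPM, 5.50% did not overlap with knockdown higher and 3.93% with knockdown lower, 9.43% in all.

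The ratio of means was 2.85 for CXCL8 and 0.374 for CXCL1, and the differences on the log2(TPM + 1) scale were 0.41 and −0.33. The difference of CXCL1 was −0.22 without control replicate 2. With every gene tested whatever its level, limma gave CXCL8 an adjusted p of 0.350 and CXCL1 an adjusted p of 0.473. The ratio of CXCL8 to CXCL1 was 5.35, 2.20 and 2.67 in knockdown, against 0.519, 0.303 and 0.577 in control. CXCL8 thus exceeded CXCL1 in all knockdown libraries and CXCL1 exceeded CXCL8 in all control libraries. CXCL1 is near-identical in sequence to CXCL2 and CXCL3, so its reads are uncertain where they could be split between copies. CXCL3 was at 0.77, 0.80 and 0.92 TPM in knockdown, against 0.31, 0.22 and 0.54 TPM in control. The sum of CXCL1, CXCL2 and CXCL3, chosen after their values were seen, was 1.00, 1.76 and 1.59 TPM in knockdown and 0.58, 1.48 and 1.40 TPM in control, with overlapping groups.

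LCN2 was by far the most abundant of the 10 genes, ranking 171 of 14135 tested genes by mean TPM. It was at 849.9, 888 and 851 TPM in knockdown, against 726, 771 and 832 TPM in control. All knockdown libraries were above all control libraries, as in 11.1% of tested genes. The means were 863 ± 21.5 TPM in knockdown and 776 ± 53.2 TPM in control (SD, n = 3 each), 1.11-fold, with a log2 fold change of 0.15 (SE 0.0506) that did not pass the threshold. The gap between the lowest knockdown and the highest control library was smaller than the spread of the control group.

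In the order of levels, knockdown libraries ran LCN2, IL18, IL1R2, IL1RN, IL1B, IL1RAP, IL1R1, CXCL8, IL1A and CXCL1. IL1RN overlapped with IL1B, and CXCL8 with IL1A, while all other neighbours in that order did not overlap. Some of these gaps were narrow. The lowest IL1B library was at 2.12 TPM and the highest IL1RAP library at 2.11 TPM. The lowest IL1RAP library was at 1.28 TPM and the highest IL1R1 library at 1.22 TPM. IL1R2 stood in position 3 in knockdown and 6 in control. In control, IL1RAP, IL1RN, IL1B and IL1R2 formed a run in which each overlapped with the next, all with means between 1.87 and 1.95 TPM. Within the knockdown group, replicate 3 had the lowest value for 6 of the 10 genes, and within control, replicate 2 had the highest for 5.

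The tested genes whose pattern was most like IL1R2 over the 6 libraries were ACVR1B, an activin receptor, OPN3, an opsin, the calcium-binding protein gene S100A6, the lysosomal membrane gene LAMP1, and KIF1C, a kinesin. Their Pearson correlations with IL1R2 on log2(TPM + 1) were between 0.992 and 0.999. The 6 points share the division into knockdown and control, so this is a description. All of these genes were, like IL1R2, lowest of the knockdown group in replicate 3, a likeness for which they were chosen. S100A6 was at 1950, 1966 and 1653 TPM in knockdown, against 1308, 1245 and 1284 TPM in control. ACVR1B was at 7.91, 8.24 and 7.44 TPM in knockdown, against 6.57, 6.45 and 6.56 TPM in control. The changes of these genes were much smaller than that of IL1R2, with log2 fold changes from 0.14 in KIF1C to 0.53 in S100A6.

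Genes of 7 lists written around the interleukin-1 pathway, termed pathway lists, were called about as often as genes in general. The lists include epithelial antimicrobial and antiprotease genes and glucocorticoid-induced genes, which are not part of that pathway. Of 130 genes matched in the table, 69 passed the level filter, and 1 rose and 0 fell, with 9 at an unadjusted limma p under 0.05. The gene that rose, SLPI, was in the antimicrobial and antiprotease list, and 0 passed in the other lists. Of all tested genes, 1.74% were called in either direction and 2207 of 14135 (15.6%) were at an unadjusted limma p under 0.05. The median log2 fold change of the 69 genes was −0.0075, beside −0.0047 over all tested genes. The median absolute change was 0.11 in both.

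**Figure D4:**
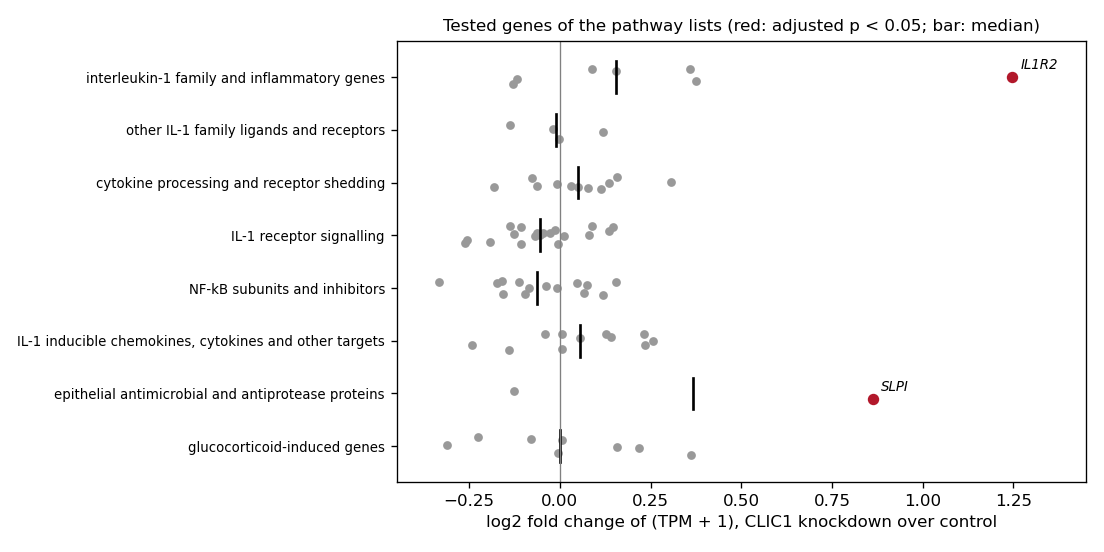
Log2 fold change of (TPM + 1), CLIC1 knockdown over control, for the tested genes of each pathway list (points) with the list median (black bar), and called genes in red. IL1R2 at 1.25 and SLPI at 0.86 are the called genes, and every other point lies between −0.33 and 0.38.

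Among other ligands and receptors of the family, 4 of 15 genes were tested and 0 passed, with 0 at an unadjusted limma p under 0.05. SIGIRR, an inhibitory receptor of the family, was the highest of the 15 at 49.0, 45.9 and 52.0 TPM in knockdown, against 48.4, 50.2 and 48.5 TPM in control. The alarmin gene IL33 had the smallest p of the 4. It was at 13.33, 12.57 and 9.84 TPM in knockdown, against 13.01, 8.95 and 10.78 TPM in control (log2 fold change 0.12, SE 0.155, limma adjusted p = 0.758).

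Cytokine processing and receptor shedding genes had 0 of 11 tested genes past the threshold, with 2 at an unadjusted limma p under 0.05. CASP1, the caspase that matures IL1B and IL18, was listed at 0 in every library. PYCARD, the inflammasome adaptor, was low throughout and untested, at 0.18, 0.23 and 0.13 TPM in knockdown, against 0, 0.06 and 0 TPM in control. CASP4, an inflammatory caspase that senses lipopolysaccharide, had the smallest p, at 30.7, 33.0 and 33.6 TPM in knockdown, against 23.9, 27.3 and 26.9 TPM in control (log2 fold change 0.31, SE 0.0723, adjusted p = 0.0954). ADAM17, a protease known to shed cell surface receptors including IL1R2, was at 14.1, 15.1 and 12.7 TPM in knockdown, against 14.5, 15.1 and 18.4 TPM in control. Its groups overlapped (log2 fold change −0.18, SE 0.108, adjusted p = 0.480).

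Downstream of the receptor, 0 of 19 tested signalling genes passed, with 2 at an unadjusted limma p under 0.05 and a median of −0.06. TAB2, an adaptor of the TAK1 kinase, had the smallest p, at 21.2, 22.5 and 20.4 TPM in knockdown, against 27.4, 24.9 and 24.9 TPM in control (log2 fold change −0.26, SE 0.0696, adjusted p = 0.135). The receptor adaptor MYD88 was at 17.2, 15.8 and 15.9 TPM in knockdown, against 15.5, 18.3 and 17.6 TPM in control. All 14 NF-kB subunits and inhibitors were tested and 0 passed, with 3 at an unadjusted limma p under 0.05. The inhibitor gene TNIP2 had the smallest p of these (log2 fold change 0.16, SE 0.0510, adjusted p = 0.199). The others under 0.05 were lower in knockdown, NFKBIZ (log2 fold change −0.33, adjusted p = 0.313) and TNIP1 (−0.16, adjusted p = 0.317). Of the 14 genes, 9 had a negative log2 fold change, beside 7257 of the 14135 genes over all tested. NFKBIA, itself induced by NF-kB, was at 37.1, 33.6 and 36.4 TPM in knockdown, against 37.8, 34.8 and 35.0 TPM in control, with overlapping groups.

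Interleukin-1 inducible targets had 11 of 36 matched genes above the level filter and 0 past the threshold, with 1 at an unadjusted limma p under 0.05. That gene was PTGES, a prostaglandin E synthase, at 12.9, 12.7 and 12.4 TPM in knockdown, against 11.6, 9.01 and 10.9 TPM in control (log2 fold change 0.26, SE 0.0994, adjusted p = 0.275). IL6 and TNF were at or below 0.17 TPM in every library, and CXCL6, CXCL10 and VCAM1 were listed at 0 in all. ICAM1, an adhesion molecule induced by NF-kB, was at 13.47, 12.36 and 12.10 TPM in knockdown, against 12.95, 12.98 and 13.14 TPM in control.

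Among epithelial antimicrobial and antiprotease genes, 2 of 15 were tested and SLPI, which encodes a secreted inhibitor of neutrophil elastase, rose. It was at 17.6, 22.2 and 18.3 TPM in knockdown, against 10.1, 8.84 and 11.6 TPM in control. All knockdown values were above all control values (log2 fold change 0.86, SE 0.123, limma adjusted p = 0.0228). The call was lost without any single library, with an adjusted p of 0.0619, 0.0877 and 0.0539 without knockdown replicate 1, 2 or 3 and of 0.132, 0.118 and 0.0660 without control replicate 1, 2 or 3, and in limma without the trend (0.0808). PI3, which encodes another elastase inhibitor, was at 14.3, 11.0 and 11.4 TPM in knockdown, against 14.9, 11.4 and 14.0 TPM in control. Of 8 tested genes in the list of glucocorticoid-induced genes 0 passed, with 0 at an unadjusted limma p under 0.05, where 1.74% of all tested genes were called. CEBPD had the smallest p of these (log2 fold change 0.36, SE 0.172, limma adjusted p = 0.368). NR3C1, the glucocorticoid receptor gene, was in the list but under the level filter, at or below 0.17 TPM in every library.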

How the data were processed

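The authors deposited 1 table of TPM for 60831 genes and 6 libraries. The tools named are RSEM, HISAT, fastp and edgeR, on GRCh38, per the submitters' processing notes; versions, annotation, strand and filters are not stated there. Control columns were identified by their abbreviation and replicate number, and the knockdown columns carry the only other prefix. Of the columns, 0 belonged to other samples. Genes with a mean of at least 1 TPM were tested on log2(TPM + 1) with limma 3.58.1 (R 4.3.3, mean-variance trend, no covariate, two-sided, Benjamini-Hochberg over 14135 genes, threshold 0.05); depth is unknown, so no count model was used. The fit was run first on simulated data in which the noise depended only on the mean level. That setting favours the mean-variance trend and so does not test it. An exact permutation test of 3 against 3 libraries cannot go below p = 0.1.

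The members and lists were chosen with earlier results of these data known. Of 153 list entries, 152 matched 1 gene. Named genes were the members, up to 3 called genes each way or the smallest p in each list, and the 5 genes most correlated with IL1R2; others, such as SIGIRR, ADAM17, MYD88, NFKBIA, ICAM1 and PI3, were named after their values were seen. Alternatives were a pseudocount of 0.1, no level filter, limma without the trend, trimmed-mean rescaling, rescaling without mitochondrial genes, a replicate block and leaving out each library. Coordinates came from GENCODE 29 and start-site sequences from RefSeq (GRCh38.p14). Protein sequences were not analysed here.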

Additional observations from a re-analysis of the deposited data

How the results depend on the processing

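A pseudocount of 0.1 moved the log2 fold change of IL1R2 to 1.58, of CXCL8 to 1.17 and of CXCL1 to −0.99, without turning their direction. IL1R2 lay past the threshold in 5 of 13 settings, the main one included. The count of the 10 genes past the threshold, 1 with all libraries, was 0 with no level filter (4 at an unadjusted limma p under 0.05), 0 in limma without the trend (1 unadjusted) and 0 with the replicate block (2 unadjusted), and between 0 and 1 when a library was left out. The count of genes of the pathway lists past the threshold was 1 with all libraries. It was 0 with no level filter (15 at an unadjusted limma p under 0.05), 0 without the trend (9 unadjusted) and 0 with the replicate block (7 unadjusted). With a library left out it was from 0 to 0 (5 to 9 unadjusted). Over all genes, 246 calls became 61 with no level filter, 0 without the trend (2040 at an unadjusted limma p under 0.05) and 41 with the replicate block, and between 20 and 236 when a library was left out. CLIC1 missed the threshold only in limma without the trend, at −0.54 (adjusted p = 0.0730), among these settings. Same-numbered libraries of the groups did not deviate together, with correlations of 0.0396, −0.0460 and −0.0132, so the numbers were not taken as pairs. IL1R1, IL1RAP and IL1A changed sign when 1 library was left out, and the other 7 genes kept their sign in every setting run. The log2 ratio of IL1R2 to IL1R1 differed by 1.43 between the groups and by 1.17 to 1.72 with a library left out. Depth is unknown, so counting error of the genes below 1 TPM cannot be given.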

Other observations

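Some values outside the named lists' rule stood apart, chosen after they were seen. S100A9, which encodes a neutrophil and epithelial alarmin, was at 0.54, 0.42 and 0.66 TPM in knockdown, against 0.16 TPM in 1 control library and a listed 0 in the others. IL23A, the cytokine subunit gene, was at 1.10, 0.72 and 0.94 TPM in knockdown, against 0.32, 0.62 and 0.40 TPM in control, and PTGS2, the inducible cyclooxygenase gene, was at 0.76, 0.51 and 0.55 TPM in knockdown, against 0.41, 0.38 and 0.43 TPM in control. IL23A, PTGS2 and S100A9 were all under the level filter, and 5.50% of the 6999 genes at such levels did not overlap with knockdown higher. Other list genes, such as IL36G and BIRC3, were lower in knockdown without overlap. This holds for 3.93% of those 6999 genes, which include IL36G, and for 11.2% of tested genes, which include BIRC3. The family ligand gene IL36G was at 0.07, 0 and 0.05 TPM in knockdown, against 0.15, 0.58 and 0.08 TPM in control. BIRC3, a tested gene, was at 1.64, 1.88 and 1.53 TPM in knockdown, against 2.32, 2.04 and 2.16 TPM in control (limma adjusted p = 0.452). NOS2, the inducible nitric oxide synthase gene, was instead higher in knockdown without overlap, as in 11.1% of tested genes. NOS2 was at 30.6, 27.7 and 28.6 TPM in knockdown, against 26.1, 25.3 and 27.0 TPM in control (log2 fold change 0.14, SE 0.0624, limma adjusted p = 0.333). IL1RAPL2, a receptor of the family known from the nervous system, ranged from 1.44 to 5.96 TPM in knockdown, against 1.47 to 8.90 TPM in control, and its log2 fold change of −0.14 had an SE of 0.552, the largest among the 4 tested genes of the other family ligands and receptors.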
